A study of Mus musculus with 12 samples.

Results

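Alveolar macrophages live on the surface that the lung epithelium coats with surfactant, and RNA of that epithelium can be found in macrophages sorted from the lung. A set of 10 such transcripts, chosen by gene symbol, was followed here, and all 10 names were found among the 55291 gene symbols of the deposited table. They fall into 3 roles. Sftpa1, Sftpb, Sftpc, Sftpd and Slc34a2 are markers of the alveolar type 2 cell. Scgb1a1, Scgb3a2 and Cyp2f2 are markers of the club cell of the airways. Ager and Hopx are markers of the flat alveolar type 1 cell, although Hopx is also transcribed in some lymphocytes.

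The cells were alveolar macrophages isolated by flow sorting from the lungs of female C57BL6/NJ mice aged 8 to 11 weeks, without any genetic change named in the labels. A group of 6 mice had been exposed to 0.8 ppm ozone and the other group of 6 to filtered air, in both cases for 4 hours per day on 4 days in a row, and lungs were taken 3 days later. Each group was split evenly over 2 flow-sort batches, with 3 mice of each exposure in each batch. The sorting gate is not described further in the labels, so how many epithelial cells it let through is unknown.

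Surfactant is a film of lipid and protein that lowers surface tension in the alveoli. Type 2 cells make it and take much of it back, and alveolar macrophages engulf and degrade the rest, which is why macrophages are in constant contact with epithelial products. Surfactant proteins B and C are small and hydrophobic and spread the lipid film. Surfactant proteins A and D are soluble collagenous lectins that bind microbes. Club cells secrete secretoglobins into the airway lining and carry cytochromes that oxidize inhaled compounds, and type 1 cells form the thin barrier across which gas is exchanged.

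The unit is variance-stabilized expression, on a log2 scale. In every gene the filtered-air mice average 0, so a value is a distance from that average, and levels cannot be compared between genes. The scale is compressed at low abundance: under the curve inferred from the table, a doubling of reads moves a value by 0.117 at 10 reads and by 0.966 at 10000 reads. In all 10 transcripts every mouse lay above the lowest value shared by mice without reads. Relative sequencing depth ran from 0.871 to 1.22 over the 12 mice, and RNA integrity numbers from 8.9 to 9.7. The 17 listed genes of alveolar macrophage identity, among them Siglecf, Marco and Car4, were also above that lowest value in every mouse.

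Start regions of 6 of the 10 members were read from RefSeq sequences of assembly GRCm38.p6, the patch release of the mm10 build that the submitters' processing notes name. The start regions of 4 members that varied together are shown because NKX2-1 and FOXA factors are known regulators of surfactant and club cell genes. Each run is the 250 bases before the transcription start, 5′ to 3′ on the strand of the gene, and capitals mark matches on either strand to CTCAAG or CAAGTG (cores bound by NKX2-1), TGTTTAC or TGTTTGC (FOXA) or TATAAA (the TATA box).
Sftpa1, chr14:41131538-41131787, plus strand: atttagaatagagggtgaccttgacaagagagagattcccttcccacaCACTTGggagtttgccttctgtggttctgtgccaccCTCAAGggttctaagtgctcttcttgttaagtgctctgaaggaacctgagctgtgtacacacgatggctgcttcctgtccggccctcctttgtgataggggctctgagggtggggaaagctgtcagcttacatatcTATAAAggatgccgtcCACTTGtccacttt
Sftpb, chr6:72304360-72304609, plus strand: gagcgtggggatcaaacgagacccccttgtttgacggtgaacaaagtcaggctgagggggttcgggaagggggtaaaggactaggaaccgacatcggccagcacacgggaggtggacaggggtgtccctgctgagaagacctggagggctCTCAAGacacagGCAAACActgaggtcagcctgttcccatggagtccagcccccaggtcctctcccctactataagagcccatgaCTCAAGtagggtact
Slc34a2, chr5:53049103-53049352, plus strand: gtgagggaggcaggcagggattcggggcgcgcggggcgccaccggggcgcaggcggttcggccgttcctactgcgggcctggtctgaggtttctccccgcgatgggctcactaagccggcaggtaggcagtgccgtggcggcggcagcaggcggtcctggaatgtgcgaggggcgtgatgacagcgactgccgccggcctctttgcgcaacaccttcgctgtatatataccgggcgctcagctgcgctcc
Cyp2f2, chr7:27119705-27119954, plus strand: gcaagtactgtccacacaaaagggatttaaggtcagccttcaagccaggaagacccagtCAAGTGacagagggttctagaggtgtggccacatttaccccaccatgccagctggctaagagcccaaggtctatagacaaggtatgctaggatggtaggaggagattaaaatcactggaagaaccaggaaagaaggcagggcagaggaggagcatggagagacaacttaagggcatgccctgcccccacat

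Sftpa1 held 3 matches to the NKX2-1 cores and a TATAAA that began 30 bases before the start. Sftpb held 2 matches to CTCAAG, which began 100 and 15 bases before the start, and 1 reverse match to TGTTTGC between them. Cyp2f2 held 1 match to CAAGTG, and the letters searched were not in the Slc34a2 window. The cores CTCAAG and CAAGTG can overlap when they run together, and in these windows they did not. Either core was present in 22.6% of 32851 start regions of the same length, either FOXA motif in 7.29% and TATAAA in 12.4%. The 6 members had 7 such regions, of which 4 held an NKX2-1 core; these matches are a description of letters and not of binding.

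Neither the surfactant transcripts nor the airway transcripts differed between ozone and filtered air beyond the spread of the mice. Of the 10 members, 0 had an adjusted p under 0.05 in limma, and 0 had an unadjusted p under 0.05. Of all 19633 genes tested 4.25% were called, 834 in number, and 16.7% had an unadjusted p under 0.05. The members' adjusted p-values in limma ran from 0.39 to 0.972. Of the differences, 6 were negative and 4 positive, with a median of -0.017, against a median of -0.0033 over all genes tested, of which 52.0% were negative. Without filtered-air mouse 4 the members' median was 0.056, 4 differences were negative and 0 were called. In 0 of the 10 members were the exposure groups separate, against 3.53% of all genes. The plot of values by mouse shows this overlap.

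**Figure D1:**
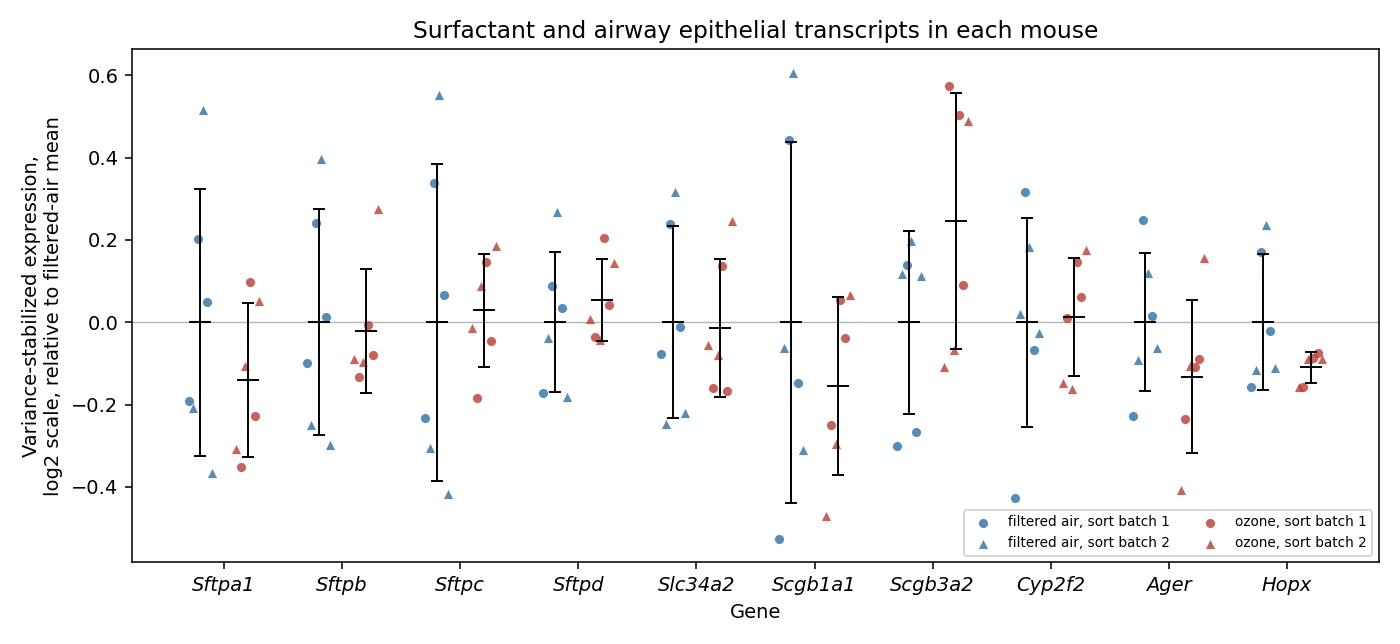
Values of the 10 transcripts in each mouse, in filtered air (blue) and after ozone (red), with circles for sort batch 1 and triangles for sort batch 2; the vertical axis is variance-stabilized expression (log2 scale, filtered-air mean set at 0), and bars give the mean ± SD of 6 mice. The groups overlap in every gene, and filtered-air mice reach from -0.53 to 0.61 in Scgb1a1.

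The surfactant proteins came first. Sftpc, which encodes the hydrophobic protein C made in the lung by type 2 cells, is at chr14:70520941-70524081. It lay at -0.23, -0.30, 0.34, 0.55, 0.065 and -0.42 in filtered-air mice 1 to 6 and at -0.014, -0.18, 0.088, 0.15, -0.044 and 0.18 in ozone mice 1 to 6. All 6 ozone mice fell inside the range of the filtered-air mice. The difference was 0.030 (SE 0.143, 95% interval -0.28 to 0.34, limma's adjusted p = 0.951). The SD was 0.386 in filtered air and 0.137 after ozone (n = 6 each).

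Sftpa1, which encodes the collagenous protein A, is at chr14:41131788-41136373. It lay at -0.19, -0.21, 0.20, 0.52, 0.050 and -0.37 in filtered air and at -0.31, -0.35, -0.11, 0.097, -0.23 and 0.051 after ozone. The same filtered-air mice, 3 and 4, were the highest as in Sftpc, and mouse 6 was again the lowest. The difference was -0.14 (SE 0.131, 95% interval -0.42 to 0.14, limma's adjusted p = 0.674).

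Sftpb, which encodes the protein B needed for a stable film, is at chr6:72304610-72314373. It lay at -0.100, -0.25, 0.24, 0.40, 0.012 and -0.30 in filtered air and at -0.088, -0.13, -0.098, -0.0059, -0.078 and 0.27 after ozone. Ozone mouse 6 stood well above the other ozone mice, and the groups overlapped. The difference was -0.021 (SE 0.111, 95% interval -0.26 to 0.22, limma's adjusted p = 0.954).

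Sftpd, which encodes the lectin protein D, lies on the same chromosome as Sftpa1 at chr14:41172212-41185198. Its values were closest together of the 4 surfactant proteins, from -0.18 to 0.27 in filtered air and from -0.042 to 0.20 after ozone. The difference was 0.053 (SE 0.0732, 95% interval -0.10 to 0.21, limma's adjusted p = 0.795). Slc34a2, at chr5:53049353-53071664, encodes the phosphate transporter of the type 2 cell surface. It ranged from -0.25 to 0.32 in filtered air and from -0.17 to 0.25 after ozone. Its difference was -0.013 (SE 0.102, 95% interval -0.23 to 0.21, limma's adjusted p = 0.972).

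Among the club cell transcripts, Scgb1a1 varied most between mice in filtered air, at an SD of 0.439. After ozone Scgb3a2 varied more, at an SD of 0.310 against 0.217 for Scgb1a1. Scgb1a1 encodes the main secretoglobin of the airways and is at chr19:9083642-9087956. It lay at -0.53, -0.063, 0.44, 0.61, -0.15 and -0.31 in filtered air and at -0.47, -0.25, -0.30, 0.055, -0.038 and 0.067 after ozone. Filtered-air mice 3 and 4 were above all 6 ozone mice, while filtered-air mouse 1 was below all of them. The difference was -0.16 (SE 0.170, 95% interval -0.52 to 0.21, limma's adjusted p = 0.730).

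Scgb3a2, another secretoglobin, had the smallest p-value of the members and the largest difference. It lay at -0.30, 0.12, 0.14, 0.20, -0.27 and 0.11 in filtered air and at -0.11, 0.57, -0.067, 0.50, 0.090 and 0.49 after ozone. Ozone mice 2, 4 and 6 were above every filtered-air mouse, and ozone mice 1, 3 and 5 were within the filtered-air range. The difference was 0.25 (SE 0.134, 95% interval -0.040 to 0.53, unadjusted p = 0.0859 and adjusted p = 0.39 in limma).

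The batches gave unlike values for Scgb3a2. In batch 1 the ozone mice 2, 4 and 5 lay above the filtered-air mice 1 and 5, and the difference was 0.53. In batch 2 it was -0.038, with only ozone mouse 6 above the filtered-air mice. The limma interaction of exposure with batch had an unadjusted p of 0.0275 and an adjusted p of 1.00. Over all genes 2.6% reached an unadjusted p under 0.05 in that test and 0.0% an adjusted one, and 1 of the 10 members, Scgb3a2, was at the unadjusted threshold.

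Cyp2f2, at chr7:27119955-27133660, encodes the cytochrome with which mouse club cells oxidize inhaled hydrocarbons. It lay at -0.43, 0.019, 0.32, 0.18, -0.066 and -0.027 in filtered air and at -0.15, 0.010, -0.16, 0.15, 0.061 and 0.18 after ozone. Filtered-air mouse 1 was low here as in Scgb1a1. The difference was 0.014 (SE 0.104, 95% interval -0.21 to 0.24, limma's adjusted p = 0.971).

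The alveolar type 1 transcripts lay below 0 on average after ozone, without passing the test. Ager, at chr17:34597460-34600937, encodes the receptor for advanced glycation end products, which is abundant on type 1 cells. It lay at -0.23, -0.092, 0.25, 0.12, 0.014 and -0.062 in filtered air and at -0.41, -0.23, -0.11, -0.11, -0.089 and 0.16 after ozone. Ozone mice 1 and 2 were below every filtered-air mouse, and ozone mouse 6 was above all filtered-air mice except mouse 3. The difference was -0.13 (SE 0.0903, 95% interval -0.33 to 0.061, limma's adjusted p = 0.528).

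Hopx, at chr5:77086986-77115123, encodes a small homeodomain protein that does not bind DNA. It lay at -0.16, -0.12, 0.17, 0.24, -0.021 and -0.11 in filtered air and at -0.16, -0.16, -0.090, -0.087, -0.075 and -0.088 after ozone. The ozone mice were close together, at an SD of 0.0379 against 0.165 in filtered air, and 2 of them fell just below the lowest filtered-air mouse. The difference was -0.11 (SE 0.0645, 95% interval -0.25 to 0.029, limma's adjusted p = 0.444).

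Within the sort batches, 5 of the 10 members changed sign. Sftpa1, Ager and Hopx were negative in both batches and Sftpd was positive in both, while Scgb1a1 was at -0.00010 in batch 1 and -0.31 in batch 2. For Ager the difference was -0.16 in batch 1 and -0.11 in batch 2, and for Hopx -0.10 and -0.11. Sftpc was at -0.083 in batch 1 and 0.14 in batch 2. The interval of every member includes 0. The intervals reach up to 0.53 in Scgb3a2 and down to -0.52 in Scgb1a1, and differences within them are not excluded by these mice. The plot of differences sets the 95% intervals beside the values of each batch.

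Single mice moved the differences of the members, and in fits that left out 1 mouse 4 of them changed sign. Without filtered-air mouse 4 the difference of Sftpc was 0.15, and without filtered-air mouse 6 it was -0.063. Sftpb was at 0.067 and -0.088 without the same mice. Slc34a2 ran from -0.071 without ozone mouse 6 to 0.057 without filtered-air mouse 4, and Cyp2f2 from -0.081 without filtered-air mouse 1 to 0.084 without filtered-air mouse 3. The other 6 members kept their sign in these 12 fits, but not their size. Without filtered-air mouse 4, Sftpa1 was at -0.026, Scgb1a1 at -0.021, Hopx at -0.057 and Sftpd at 0.11. Ager was at -0.071 when ozone mouse 1 was left out and at -0.20 when ozone mouse 6 was, Scgb1a1 reached -0.27 without filtered-air mouse 1, and Sftpa1 and Sftpd were at -0.22 and 0.013 without filtered-air mouse 6. Scgb3a2 was at 0.17 when ozone mouse 2 was left out and at 0.33 when ozone mouse 1 was. None of the members was called in any of these fits.

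**Figure D2:**
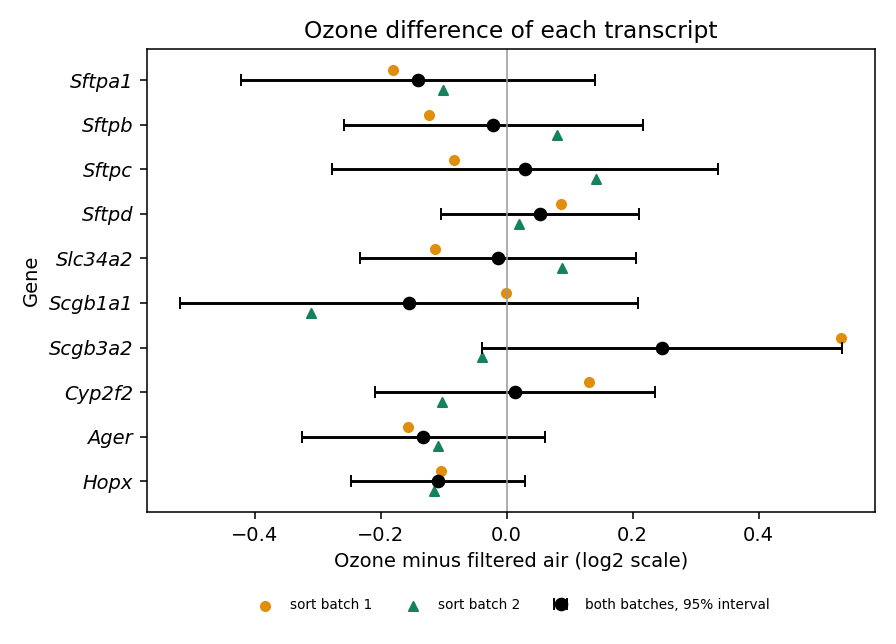
Difference between ozone and filtered air for each transcript (horizontal axis, log2 scale), as the limma estimate over 12 mice with its 95% interval (black) and as the plain difference of means in sort batch 1 (orange circles) and sort batch 2 (green triangles). Every interval crosses 0, and the batches lie farthest apart in Scgb3a2, at 0.53 and -0.038.

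The members varied widely between mice of the same exposure. The residual SD, after removal of exposure, batch and their interaction, was 0.375 for Scgb1a1, 0.316 for Sftpc and 0.295 for Sftpa1, against a median of 0.0822 over all genes tested. For the 10 members it exceeded that of 85.6% (Hopx) to 99.7% (Scgb1a1) of the genes tested. The spread on this scale also depends on abundance, which is not known here. In 8 of 10 members the SD was larger in filtered air than after ozone, with a median ratio of 1.75, while this held in 48.6% of all genes, with a median ratio of 0.985. Among the marker lists given below, it also held in most of 20 other type 2 genes and most of 12 T, B and NK genes. It held in all 5 neutrophil genes tested, but not in most of 12 fibroblast and smooth muscle genes. The difference in spread between the exposures was not tested.

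Several mice were high or low in most of the members. Filtered-air mouse 4 was the highest of the 12 mice in 7 members and filtered-air mouse 3 in 2. Both lay above the median of their group in 10 of 10 members, and filtered-air mice 1 and 6 in 0. Among the ozone mice, mouse 6 was above its group median in 10 members and mouse 4 in 9. Ozone mouse 2 did not keep its place: it was the lowest ozone mouse in Sftpa1, Sftpb and Sftpc and the highest of the 12 mice in Scgb3a2. The mean of the 5 surfactant transcripts was 0.41 in filtered-air mouse 4 and 0.22 in mouse 3, against -0.30 in mouse 6. In the ozone group it ran from -0.17 in mouse 2 to 0.18 in mouse 6.

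To measure this, each member was centred on the mean of its exposure and batch, and pairs of members were correlated over the 12 mice, with an exact permutation of mice within the 4 combinations of exposure and batch. All 45 pairs were positive, with a median Pearson r of 0.836 (Spearman rho 0.832), and 39 had an adjusted p under 0.05 over the 45 pairs (34 by rho). The smallest p that these permutations allow is 0.000772. The 12 values of a pair share their library, its depth and the batch correction. Without the 2 mice farthest from the median of the first gene of each pair, the median r was 0.812. Within the exposures, on values not centred on batch, the median r was 0.844 in the filtered-air mice and 0.662 in the ozone mice.

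The surfactant transcripts had the highest median r of the roles, 0.931. Their 10 pairs had r from 0.907 to 0.970, and all 10 passed. For the pairs named next, the adjusted p of r is given first and that of rho after it, both from the exact permutation test. Sftpa1 and Sftpc had an r of 0.970 (rho 0.986, exact permutation adjusted p = 0.00463 and 0.00496), and 0.925 without filtered-air mice 4 and 6. Sftpb and Slc34a2, which lie on different chromosomes, had an r of 0.951 (rho 0.937, exact permutation adjusted p = 0.00958 and 0.0104), and 0.892 without filtered-air mouse 4 and ozone mouse 6. Both are among the start regions printed above, and the Slc34a2 window has none of the letters searched. Whether such letters relate to the covariation was not tested.

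Covariation crossed the roles, with lower r than among the surfactant transcripts. The median r was 0.718 between surfactant and club cell transcripts (0.369 to 0.922) and 0.778 between surfactant and type 1 transcripts (0.651 to 0.958). Among the club cell transcripts it was 0.703 (0.567 to 0.888). The pairs named next had the highest r of these kinds. Sftpc and Scgb1a1, of alveoli and airways, had an r of 0.922 (rho 0.930, exact permutation adjusted p = 0.00463 and 0.00496), and 0.908 without filtered-air mice 4 and 6. Sftpc and Hopx had an r of 0.958 (rho 0.874, exact permutation adjusted p = 0.00958 and 0.0231), and 0.934 without the same mice. Scgb1a1 and Cyp2f2, both of club cells, had an r of 0.888 (rho 0.853, exact permutation adjusted p = 0.00463 and 0.0110), and 0.881 without filtered-air mice 3 and 4.

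Scgb3a2 followed the others least. By r, all 6 of the pairs that did not pass contained it, and 3 of its 9 pairs passed. By rho, 0 of its 9 pairs passed (exact permutation adjusted p = 0.0550 to 0.459), and 2 pairs without it did not pass either, Slc34a2 with Ager and with Hopx. Its r was 0.703 with Cyp2f2 (rho 0.678, exact permutation adjusted p = 0.0418 and 0.0550). This dropped to 0.395 without ozone mouse 6 and filtered-air mouse 3, the farthest from the median of Scgb3a2. Within the exposures, on values not centred on batch, the r of Scgb3a2 with Cyp2f2 was 0.797 in ozone mice and 0.801 in filtered-air mice. With Scgb1a1, its relative, r was 0.567 (rho 0.469, exact permutation adjusted p = 0.0582 and 0.142) and 0.487 without filtered-air mice 3 and 4. The lowest r of the 45 was that of Scgb3a2 with Hopx, at 0.354, while pairs without Scgb3a2 reached down to 0.651. The map of correlations shows this gene as the darkest row.

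**Figure D3:**
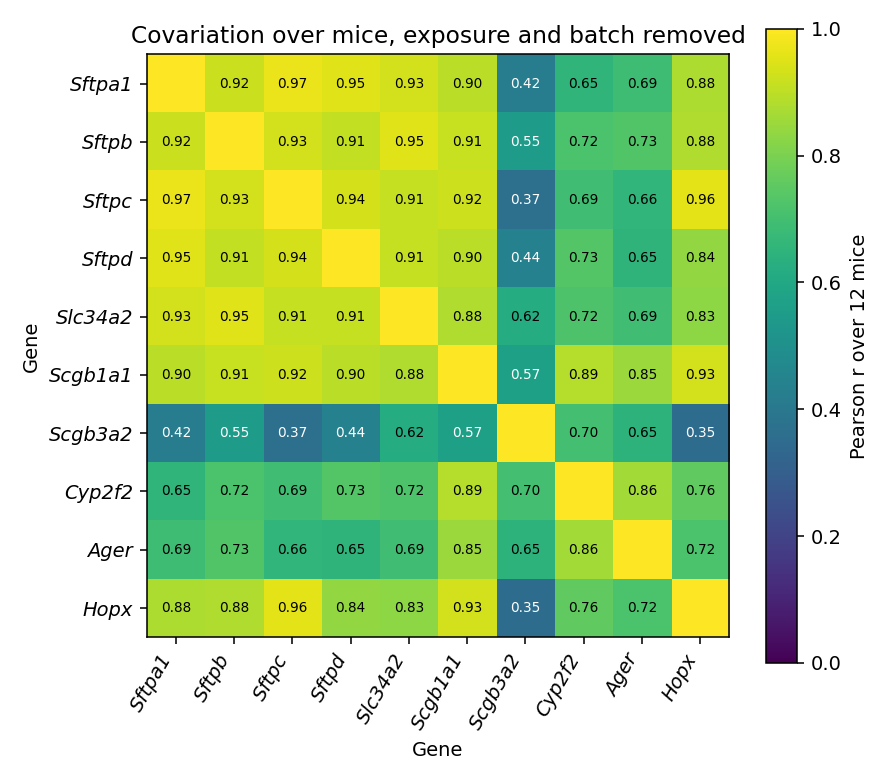
Pearson r between each pair of the 10 transcripts over 12 mice, after subtraction of the mean of each exposure and batch; both axes list the genes and colour runs from 0 (dark) to 1 (bright). The surfactant block at the upper left lies between 0.907 and 0.970, and the Scgb3a2 row between 0.354 and 0.703.

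Further genes of the same cells were counted from written lists. Of 20 other alveolar type 2 genes 1 was called lower and 0 higher. That gene was Cd36, a fatty acid transporter that macrophages also make, which fell by 0.46 (limma, SE 0.0513, adjusted p = 0.000402) and is in the list of lipid handling by macrophages too. The median difference of the type 2 list was 0.023, and 14 of its genes were positive. That median ran from 0.0066 without filtered-air mouse 6 to 0.048 without filtered-air mouse 4. Among 16 kept club cell genes 0 were called, and Cckar had the smallest p (difference 0.12, limma's adjusted p = 0.241). Of 14 genes of ciliated cells, 9 were positive and 5 negative, with a median difference of 0.057 (0.096 without filtered-air mouse 4, 0.038 without ozone mouse 5), and 1 was called lower and 0 higher. That median was 0.089 in batch 1 alone and 0.0050 in batch 2 alone. The called gene went against the median: Tppp3, a tubulin-binding protein, fell by 0.81 (SE 0.111, limma's adjusted p = 0.00158), a call that was lost when the variance prior followed the mean value. Called as lower were 1.84% of all genes and as higher 2.41%.

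In the list of other type 1 genes, 15 of 16 were negative, with a median difference of -0.15, and 2 were called lower and 0 higher. The share of negative differences was 52.0% over all genes tested, and 11 of 12 endothelial genes were negative too, with a median of -0.14. Akap5, which anchors protein kinase A, fell by 0.56 (SE 0.0972, limma's adjusted p = 0.00508). Krt7, a keratin of simple epithelia, fell by 0.21 (SE 0.0547, limma's adjusted p = 0.0442), a call that was lost in 9 of the 12 fits that left out a mouse. The list's median stayed negative in each alternative run, with 12 to 16 negative genes. Ager and Hopx, given above, belong to the same cell. Over the mice, both called genes followed Sftpc and Scgb1a1 least of the 16: Akap5 had an r of -0.37 with Sftpc and -0.18 with Scgb1a1, and Krt7 had 0.085 and 0.10. Of 16 genes of epithelia in general, 8 were negative and 1 was called: Epcam, an adhesion molecule that some myeloid cells also carry, fell by 0.55 (SE 0.0992, limma's adjusted p = 0.00620), a call that was lost after quantile normalization.

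Genes by which macrophages take up and break down lipid, the handling side of surfactant, were counted as well. Of 16, 1 was called lower, Cd36, and 0 higher, and the median difference was -0.015, with a range from -0.037 without filtered-air mouse 3 to 0.0020 without filtered-air mouse 5. Of 17 genes of alveolar macrophage identity, 2 were called higher and 3 lower, with a median of -0.017. That median ran from -0.059 without ozone mouse 1 to 0.0070 without filtered-air mouse 5 and was also positive, at 0.0053, without filtered-air mouse 2. Adgre1, which encodes the F4/80 antigen, fell by 0.30 (SE 0.0468, limma's adjusted p = 0.00291), Krt79 fell by 0.35 (limma's adjusted p = 0.0177) and Ear1 fell by 0.28 (limma's adjusted p = 0.0358). Car4, a carbonic anhydrase, rose by 0.32 (limma's adjusted p = 0.0460) and Chil3, a chitinase-like protein, rose by 0.25 (limma's adjusted p = 0.0320). The calls of Ear1, Car4 and Chil3 were lost in 8, 8 and 7 of the 12 fits that left out a mouse, and Ear1 and Chil3 have close relatives with which reads can be shared. After quantile normalization 0 of the 17 were called, and the call of Krt79 was also lost without filtered-air mouse 4 and ozone mouse 4. Of the 10 genes called in these lists, Cd36 alone was called in batch 1 alone, and 0 were in batch 2 alone, with 3 mice a group.

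Listed genes of the same cell did not all follow Sftpc over the mice. Across the 20 other type 2 genes the r with Sftpc had a median of 0.554. Cxcl15, a chemokine of lung epithelium, followed it at 0.925 and Lamp3, a lysosomal membrane protein, at 0.816. Abca3, the lipid pump of lamellar bodies, was at 0.099, Napsa, a protease that processes surfactant proteins, at -0.0094 and Cd36 at -0.48. Of the club cell list, Cbr2, a carbonyl reductase, followed Scgb1a1 at 0.976, the highest of a list whose median was 0.660 and whose lowest was Reg3g at 0.116. Of the genes of epithelia in general, Krt18 had the highest r with Sftpc, 0.847, and Epcam was at 0.094. The median of that list was 0.369, and its lowest was Esrp1 at -0.483. Ms4a1, a B cell surface gene of the leukocyte list, was at 0.943 with Sftpc, the highest of a list whose median was 0.680 and whose lowest was Trbc2 at 0.229. The median r of all 17168 genes compared was -0.033. These values describe 12 mice and carry no test.

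The genes most like Sftpc and on no list were Abca6 (r = 0.979), Rgs9 (0.953), Hmox1 (0.939), Fasl (0.939) and Akr1c14 (0.937), among 17168 genes with no mouse at a shared lowest value. Those most like Scgb1a1 were Mapk12 (0.976), Ces1d (0.973), C1s1 (0.968), Spns2 (0.968) and Tnxb (0.965). Likeness was Pearson's r over 12 mice after centring, in genes that share libraries. None of these 10 genes had an adjusted p under 0.05 for ozone in limma, with the lowest, 0.206, in Tnxb.

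Endothelial and fibroblast markers moved over the mice with Sftpc and Scgb1a1, the 2 members compared, while those of blood leukocytes had high r that did not pass the test. The mean of 12 endothelial genes, such as Pecam1 and Cdh5, ran from -0.27 to 0.29 in filtered air and from -0.31 to 0.20 after ozone, and none of the 12 had a mouse at a shared lowest value. It was highest in filtered-air mouse 3 and ozone mouse 6. Its r was 0.904 with Scgb1a1 (rho 0.867, exact permutation p adjusted over 28 relations 0.00810 and 0.0162) and 0.790 with Sftpc (rho 0.811, adjusted p = 0.00810 and 0.0144). Without ozone mouse 6 and filtered-air mouse 3 these were 0.875 and 0.848. The mean of 12 genes of fibroblasts and smooth muscle had an r of 0.874 with Scgb1a1 (rho 0.867, exact permutation adjusted p = 0.00720 and 0.0130) and 0.759 with Sftpc (rho 0.783, adjusted p = 0.00720 and 0.0108), and 0.835 and 0.790 without the same mice. The mean of 5 neutrophil genes had an r of 0.830 with Sftpc (rho 0.720, exact permutation adjusted p = 0.154 and 0.101), which became 0.572 without filtered-air mice 2 and 4. The mean of 12 genes of T, B and NK cells had an r of 0.703 with Sftpc (rho 0.650, exact permutation adjusted p = 0.208 and 0.164), which became 0.463 without the same 2 mice. With Scgb1a1 these lists had r of 0.640 and 0.608 (rho 0.622 and 0.636, exact permutation adjusted p of r 0.154 and 0.228), and 0.485 and 0.498 without those mice.

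The other lists were set beside the same 2 members. The means of other type 1 genes and of ciliated genes had r of 0.892 and 0.964 with Sftpc (rho 0.902 and 0.916) and of 0.934 and 0.844 with Scgb1a1 (rho 0.958 and 0.909). Each r had an adjusted p of 0.00720 in the exact permutation test, and the rho values had 0.0108 to 0.0162. Without the 2 farthest mice these r were 0.842, 0.914, 0.897 and 0.805. The mean of other club cell genes had lower r, 0.656 with Sftpc and 0.774 with Scgb1a1 (exact permutation adjusted p = 0.0450 and 0.0412), and did not pass by rho (0.587 and 0.629, adjusted p = 0.101 each). Without ozone mouse 6 and filtered-air mouse 3 these r were 0.610 and 0.614. The mean of genes of epithelia in general did not pass, at r of 0.684 and 0.674 (rho 0.727 and 0.748, exact permutation adjusted p of r 0.208 and 0.136 and of rho 0.0828 and 0.0511), and 0.62 and 0.56 without filtered-air mouse 6 and ozone mouse 1. The mean of other type 2 genes passed, at r of 0.938 and 0.786 (rho 0.923 and 0.790, exact permutation adjusted p of r 0.0312 and 0.0324 and of rho 0.0264 and 0.0389), and 0.829 and 0.632 without filtered-air mice 4 and 6. The list of alveolar macrophage identity had r of -0.311 with Sftpc and -0.442 with Scgb1a1 (rho -0.294 and -0.441, adjusted p of r 0.508 and 0.301, exact permutation). That of lipid handling by macrophages had r of -0.267 and -0.484 (rho -0.245 and -0.399, adjusted p of r 0.208 and 0.154, exact permutation). The erythroid and platelet list had r of 0.375 and 0.240 (rho 0.336 and 0.133, adjusted p of r 0.316 and 0.485, exact permutation). Relative depth had r of -0.308 and -0.119 (rho -0.238 and 0.014, adjusted p of r 0.420 and 0.685, exact permutation). RNA integrity had r of -0.722 with Sftpc (rho -0.497, exact permutation adjusted p = 0.228 and 0.332), which became -0.294 without filtered-air mice 2 and 4. Filtered-air mouse 4, the highest mouse in 7 members, also had the lowest RNA integrity number, 8.9, and the highest list means of neutrophils (0.29) and of T, B and NK cells (0.29). In all, 12 of the 28 relations had an adjusted p under 0.05 by r and 10 by rho, the club cell list being lost, all of them positive and with epithelial, endothelial or fibroblast and smooth muscle lists.

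The endothelial list had a median difference of -0.14 between ozone and filtered air, with 11 of 12 genes negative and 0 called; Ramp2 had the smallest p (difference -0.22, limma's adjusted p = 0.286). That median was -0.069, -0.080 and -0.078 without filtered-air mouse 3, filtered-air mouse 4 and ozone mouse 1, and -0.21 without filtered-air mouse 1 or ozone mouse 6. No gene was called in the lists of fibroblasts and smooth muscle (smallest p in Gsn, difference 0.19, limma's adjusted p = 0.0722), neutrophils (Csf3r, -0.27, 0.0837), T, B and NK cells (Cd79a, -0.29, 0.0853) or erythroid cells and platelets (Hba-a1, 0.21, 0.187). Unadjusted p-values under 0.05 were reached by 1 of 12, 4 of 12, 1 of 5, 2 of 12 and 1 of 8 genes of these 5 lists, against 16.7% of all genes. Of the T, B and NK genes 10 of 12 were negative (median -0.072, and -0.0030 without filtered-air mouse 4, -0.13 without ozone mouse 5), and of the erythroid and platelet genes 7 of 8 were positive (median 0.11). The fibroblast and smooth muscle list had 7 of 12 positive (median 0.046, with 0.0038 when filtered-air mouse 1 was left out and 0.10 when ozone mouse 1 was), and the neutrophil list had 4 of 5 negative (median -0.018, and 0.037 without filtered-air mouse 4, -0.10 without filtered-air mouse 2). The neutrophil genes Camp, Ngp and Ly6g were at the shared lowest value in most mice and were not tested. Some fits that left out 1 mouse gave calls in these lists. Without filtered-air mouse 4, 1 neutrophil gene was called lower and 1 fibroblast and smooth muscle gene higher. The latter list had 1 gene called higher without filtered-air mouse 5 and 1 lower without ozone mouse 6. Without filtered-air mouse 2, 1 T, B and NK gene was called lower. In bulk RNA, fewer cells of a type and less RNA per cell cannot be told apart, nor can whole epithelial cells in the sort and epithelial RNA held by macrophages. The part of the carried cells in the values of the members was not tested. The plot of means by mouse shows the members beside these lists.

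**Figure D4:**
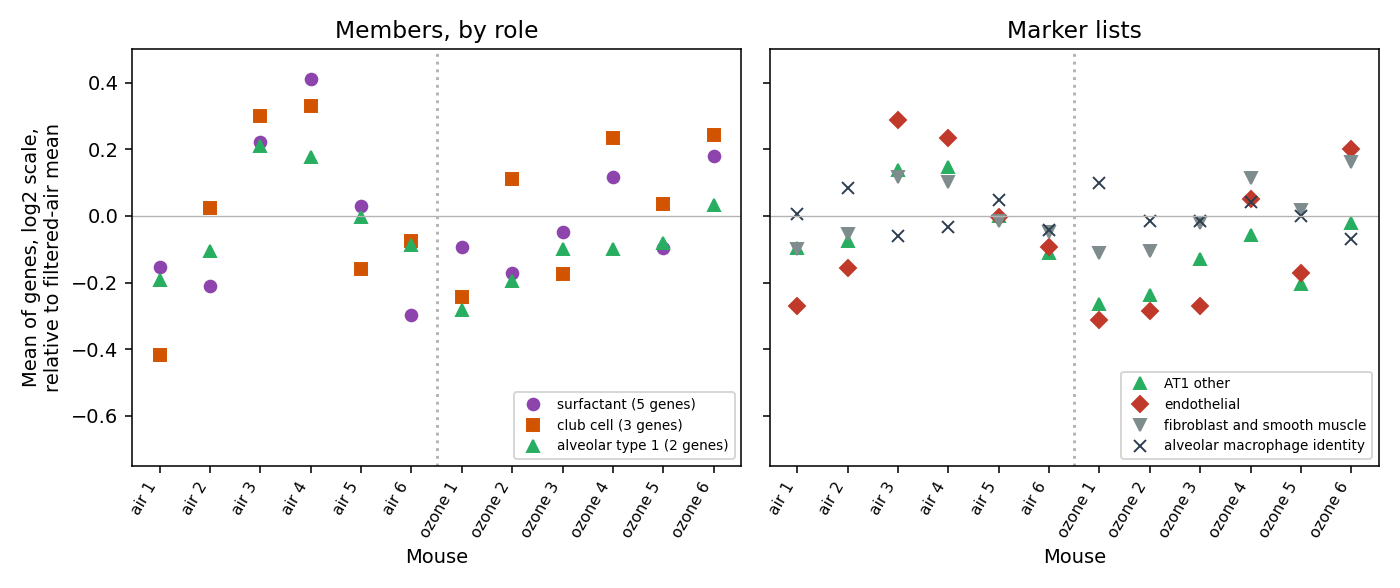
Mean of the members by role (left) and of 4 marker lists (right) in each filtered-air and ozone mouse; the vertical axis is on a log2 scale relative to the filtered-air mean, and each point is the mean over the genes of 1 list in 1 mouse. Filtered-air mice 3 and 4 and ozone mice 4 and 6 are high in the surfactant, endothelial and fibroblast means, while the macrophage identity mean stays between -0.070 and 0.099. That mean covers 17 genes, 6 with positive and 11 with negative ozone differences. Single genes of the list can vary more, as Marco did at an SD of 0.528 in filtered air.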

How the data were processed

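Polyadenylated RNA of flow-sorted alveolar macrophages from 12 mice was sequenced as paired-end reads from a stranded kit, per the labels' protocols. The deposited table holds 1 column per mouse on a log2 scale, variance-stabilized and batch corrected by the authors, per the file's name. The submitters' processing notes name mm10, cutadapt, STAR 2.7.7a, Salmon 1.5.2, DESeq2 1.26.0, R 3.6.0 and limma 3.42.2, without their roles; the annotation is not given in the sources used here. All 12 columns matched a sample title. In the values, the filtered-air mean and the difference between batch means are 0 in every gene. Read totals are not known; relative depth was inferred from the step of 1 read above the shared minimum.

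Genes were kept where at least 6 of 12 mice lay above the shared minimum of their batch (tolerance 1e-06), which left 19633 of 25444 genes that were not constant. Ozone was compared with filtered air in limma 3.58.1 (R 4.3.3) with batch as a covariate and Benjamini-Hochberg adjustment over all genes kept, at a threshold of 0.05. Intervals are at 95%. Correlations used all 1296 reassignments of mice within exposure and batch, two-sided. The fit and the permutation test were tested on simulated data.

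Named were all 10 members, each called gene of the lists or else its gene of smallest p, and the 5 genes most like Sftpc and Scgb1a1. Genes named from the lists for their correlation with these 2 were picked after their values were seen, as were the comparisons with list means, RNA integrity and depth. The members and lists were chosen with earlier results of these data known. Other filters, covariates, variance priors and scalings, single batches, a replicate block and fits without single mice were also run.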

Additional observations from a re-analysis of the deposited data

Results flagged for a closer look

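In Sftpb, ozone mouse 6 lay at 0.27, far above the other 5 ozone mice, the next of which was at -0.0059. Its gap to the next mouse was 0.690 of the range of the group, which is past Dixon's 95% critical value for 6 mice. This was the only case among 20 combinations of member and exposure, and chance alone gives about 1. The same mouse was the highest ozone mouse in the surfactant mean, at 0.18, and in the endothelial list, at 0.20. Without it the Sftpb difference between ozone and filtered air was -0.087 and was not called.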

How the results depend on the processing

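The count of called members stayed at 0 in 23 of 24 alternatives, and in 239 of 240 results for single members no call was made. The exception was the replicate block, where Scgb3a2, at 0.25, was called (adjusted p = 0.0480) and the count was 1. The block gave 853 calls over the whole table. In the fibroblast and smooth muscle list it called 1 gene lower and 1 higher. It called 1 gene lower in the neutrophil list and 1 lower in the T, B and NK list. Same-numbered mice are different animals, and for 4 of the 6 numbers they came from different sort batches. The correlation of their deviations ran from -0.0026 to 0.284, above 0.1 in 4 of 6. Each mouse was also compared with all 6 mice of the other exposure, and 6 of 12 mice correlated best with their own number. The labels name nothing that a number shares, so the fit without the block was kept; whether the numbers pair the mice was not settled. Over the whole table the 834 calls became 1152 without the batch term and 611 when the variance prior followed the mean value. They became 171 after quantile normalization, 90 in batch 1 alone and 0 in batch 2 alone (1800 genes at an unadjusted p under 0.05). There were 534 without filtered-air mouse 4 and ozone mouse 4, an alternative chosen after seeing the data. Without single mice the calls ran from 538 (without filtered-air mouse 1) to 751. Fewer mice enter the single-batch and left-out fits; for the other settings the cause was not tested. The median difference of the members ran from -0.079 without ozone mouse 6 to 0.056 without filtered-air mouse 4 in fits that left out 1 mouse, and from -0.094 in batch 1 alone to 0.027 in the other alternatives. The median pairwise correlation was 0.662 in ozone mice alone, on values not centred on batch, and from 0.803 to 0.870 without single mice. With 6 mice a group, the width of the intervals limits what could be seen, most in Scgb1a1.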
